A study of Mus musculus with 3 samples.

Results

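BC1 RNA and the ID and B4 families of short interspersed repeats (SINEs) were followed across 3 hippocampal libraries of immunoprecipitated RNA. The set was fixed by name and by no measured value, though earlier results of these data were known when it was chosen. It held BC1_Mm, the names ID, ID2, ID4 and ID4_, and the names B4, B4A, ID_B1 and RSINE1. Of these 9 names, 8 were among the 18484 repeat names of the count files, and ID4_ was not, so it has no value here. The nearest name, ID4_v, fell outside the rule and was left out. It had 3 reads in PS19 ZBP1, 4 in PS19 ZNA and 0 in WT ZNA, the groups set out next. Reads were found on 8 of the 8 names in the ZBP1 pull-down and on 7 in each of the ZNA pull-downs.

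The mice were 9 months old on a C57BL/6 background, and each group was 1 library. The groups were a ZBP1 pull-down from PS19 hippocampus (PS19 ZBP1), a ZNA pull-down from PS19 hippocampus (PS19 ZNA) and the ZNA pull-down of wild-type hippocampus (WT ZNA). PS19 is a line with a transgene for mutant human tau, driven by the mouse prion promoter. ZBP1 is a sensor protein that binds left-handed nucleic acid, and ZNA is taken here as nucleic acid of that form. The labels do not state how many mice a library pools, and no input, isotype-control or WT ZBP1 library was analysed here. The names are those of repeats, so the tissue could not be checked against marker genes.

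BC1 (brain cytoplasmic RNA) is a short non-coding RNA of rodent neurons, made by RNA polymerase III and carried into dendrites, where it is known to dampen the start of translation. ID (identifier) elements are retroposed copies that derive from BC1. B4 elements are composite rodent SINEs that join an ID-like part to a part like B1, the SINE descended from 7SL RNA. SINE sequence is also carried inside longer transcripts, in introns and untranslated ends. A repeat name pools all its copies, so reads from a SINE's own transcript and from a longer transcript that holds a copy cannot be told apart in these counts.

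The start of the Bc1 gene is shown because it is the ID-like end of the RNA, the part that BC1 shares with ID elements. The 50 bases lie at chr7:144914470-144914519 on the + strand of GRCm38.p6 (RefSeq) and begin at the annotated start of the non-coding RNA. The build that the submitters' processing notes name for the counts is mm39, and the counts themselves have no coordinates. Capitals mark a match to the A box, the internal promoter element of RNA polymerase III genes of the tRNA type, searched by its consensus on both strands.
Bc1, bases 1 to 50: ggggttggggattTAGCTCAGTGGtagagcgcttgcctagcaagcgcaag
The match covered bases 14 to 24 of the RNA. The consensus also matched in 2324 of 32851 RefSeq windows of 300 bases around gene starts (7.07%), the Bc1 window included, so a match by itself is common and describes the letters only. Of the 8 names, BC1 was the one for which a sequence was matched.

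The libraries held 1425383 (PS19 ZBP1), 2918985 (PS19 ZNA) and 3234786 (WT ZNA) reads on repeat names. Of these, 5.22%, 10.6% and 4.49% lay outside the 2 ribosomal RNA names, LSU-rRNA_Hsa and SSU-rRNA_Hsa. Values are therefore given in 2 units. CPM is reads per 1000000 reads of the library total, and non-rRNA CPM is reads per 1000000 reads outside rRNA. The share outside rRNA was highest in PS19 ZNA, and its part in the values per library total was not tested. With 1 library per group there is no replicate error. All intervals are 95% intervals from counting error alone (exact Poisson for a level, exact conditional for a ratio, Wilson for a share). They do not show how far a second library of the same kind would lie, and reads are not independent molecules.

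BC1_Mm had 33 reads in PS19 ZBP1, 146 in PS19 ZNA and 77 in WT ZNA. Its level was 23.2 CPM (15.9 to 32.5) in PS19 ZBP1, 50.0 CPM (42.2 to 58.8) in PS19 ZNA and 23.8 CPM (18.8 to 29.8) in WT ZNA. Per library total, PS19 ZNA thus stood above the other 2 libraries, whose intervals overlapped. In non-rRNA CPM the levels were 443 (305 to 622), 473 (399 to 556) and 530 (418 to 662) in the same order. In that unit all 3 intervals overlapped, and no order of the libraries can be read from BC1.

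The ID names carried very few reads. ID4 had 6 reads in PS19 ZBP1, 8 in PS19 ZNA and 2 in WT ZNA. ID had 2, 2 and 0 reads in the same order, and ID2 had 1, 0 and 1. The limit that a count of 0 allows was set at 3 reads, apart from the Poisson intervals, which is 0.927 CPM in WT ZNA and 1.03 CPM in PS19 ZNA. Pooled, the 3 ID names had 9, 10 and 3 reads, or 6.31 CPM (2.89 to 12.0), 3.43 CPM (1.64 to 6.30) and 0.927 CPM (0.191 to 2.71). The pooled level was highest in PS19 ZBP1, but its interval overlapped that of PS19 ZNA. It lay above that of WT ZNA. In non-rRNA CPM the pooled levels were 121 (55.3 to 229), 32.4 (15.5 to 59.6) and 20.6 (4.26 to 60.3). In that unit the PS19 ZBP1 interval overlapped those of both ZNA libraries.

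B4A held the most reads of the set: 3007 in PS19 ZBP1, 7319 in PS19 ZNA and 3265 in WT ZNA. Its level was 2110 CPM (2035 to 2186), 2507 CPM (2450 to 2565) and 1009 CPM (975 to 1045). The PS19 libraries thus lay above WT ZNA, and PS19 ZNA lay above PS19 ZBP1. In non-rRNA CPM, B4A stood at 40377 (38946 to 41846), 23716 (23176 to 24266) and 22460 (21696 to 23244), so that PS19 ZBP1 was the highest and the ZNA libraries lay close together.

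B4, the name of the family's type element, followed the same order. It had 1683 reads in PS19 ZBP1, 4108 in PS19 ZNA and 1908 in WT ZNA. Its level was 1181 CPM (1125 to 1239), 1407 CPM (1365 to 1451) and 590 CPM (564 to 617), and 22599, 13311 and 13125 non-rRNA CPM. In the second unit the intervals of the ZNA libraries overlapped.

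ID_B1, whose name joins its ID and B1 parts, had 1192 reads in PS19 ZBP1, 2820 in PS19 ZNA and 1183 in WT ZNA. Its level was 836 CPM (789 to 885), 966 CPM (931 to 1002) and 366 CPM (345 to 387). In non-rRNA CPM it stood at 16006, 9138 and 8138, and here the ZNA libraries did not overlap (8803 to 9481 in PS19, 7681 to 8615 in WT).

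RSINE1, a further name that RepeatMasker places in the B4 family, had 993, 1826 and 810 reads in PS19 ZBP1, PS19 ZNA and WT ZNA. Its level was 697 CPM (654 to 741), 626 CPM (597 to 655) and 250.4 CPM (233 to 268). It was the one B4 name with a higher CPM in PS19 ZBP1 than in PS19 ZNA. In non-rRNA CPM it stood at 13333, 5917 and 5572.

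**Figure D1:**
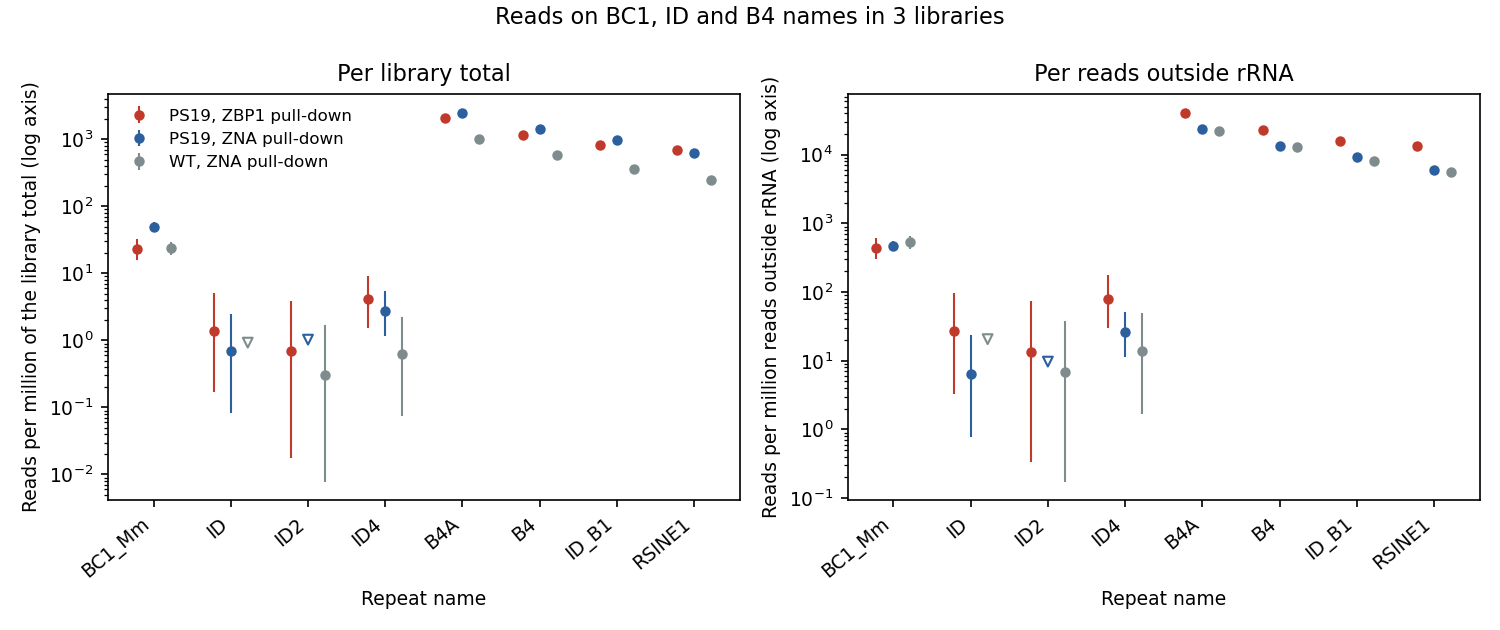
Level of each of the 8 names in the 3 libraries, in CPM of the library total (left) and in non-rRNA CPM (right), both on log axes. Points are single libraries, bars are 95% exact Poisson intervals, and open triangles mark the level of 3 reads for a name with 0 reads. On the right the BC1_Mm intervals of the 3 libraries overlap, while PS19 ZBP1 is highest for each of the 4 B4 names.

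In the first comparison, PS19 against WT within the ZNA pull-down, BC1 and the B4 names were all higher in PS19 per library total and close to WT once the reads outside rRNA were the base. BC1_Mm was 2.10-fold higher per library total (1.58 to 2.81). The 4 B4 names pooled were 2.49-fold higher (2.42 to 2.56), and the single names ran from 2.39-fold (B4) to 2.64-fold (ID_B1). To be compared, a name needed an average of 1 CPM or more and 20 reads or more over both libraries. BC1_Mm and the 4 B4 names passed, and the 3 ID names did not.

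On the log2(CPM + 1) scale, where the added 1 shrinks the ratios of thinly covered names, these 5 names were all at least 2-fold higher in PS19. The background was 74.3% of the 713 names compared, and 0.421% were at least 2-fold lower, so the count of 5 is close to what names in general did. Their median log2 ratio was 1.31, against 1.24 for all names (interquartile range 0.99 to 1.45). Scaled to reads outside rRNA, none of the 5 was 2-fold higher or lower, where 3.52% and 2.39% of 711 names were. Their median was then 0.08, against 0.07 for all names. TMM scaling, based on a trimmed mean of the log2 ratios, put the median of all names at 0.08. It also left none of the 5 past 2-fold, where 3.51% of names were higher and 2.66% lower.

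Per reads outside rRNA, BC1_Mm was at 0.893 of its WT value (0.673 to 1.19), an interval that includes no difference, and lay above 23.8% of the names. The B4 names pooled were 1.06-fold higher in PS19 (1.03 to 1.09). Of the single names, ID_B1 was 1.12-fold higher (1.05 to 1.20) and B4A 1.06-fold higher (1.01 to 1.10). The intervals of B4 (0.960 to 1.07) and RSINE1 (0.977 to 1.15) include no difference. The pooled ID names, on 10 and 3 reads, were 3.69-fold higher per library total (0.951 to 20.9) and 1.57-fold higher per reads outside rRNA (0.404 to 8.88). Both intervals include no difference. With ID4_v added, an alternative chosen after seeing the data, the ID reads were 14 and 3, and the ratios were 5.17 per library total (1.44 to 28.1) and 2.20 per reads outside rRNA (0.614 to 11.9), so the first interval then lies above no difference.

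In the second comparison, ZBP1 against ZNA pull-down within PS19, BC1 and the B4 names parted. Both comparisons use the PS19 ZNA library, so their values are not independent. BC1_Mm was 2.16-fold lower in the ZBP1 library per library total (1.47 to 3.26), and the B4 names pooled were 1.14-fold lower (1.11 to 1.17). Per reads outside rRNA, BC1_Mm was at 0.937 of its ZNA value (0.622 to 1.37), whereas the B4 names pooled were 1.77-fold higher in the ZBP1 library (1.72 to 1.82). BC1 relative to the B4 names, a ratio within each library that no scaling changes, was thus 0.528 of its ZNA value in the ZBP1 library (0.350 to 0.776). Between the ZNA libraries the same ratio in PS19 was 0.845 of its WT value (0.636 to 1.13), an interval that includes no difference.

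Among the B4 names, RSINE1 moved the farthest towards the ZBP1 library. It was 1.11-fold higher than in the ZNA library per library total (1.03 to 1.20) and 2.25-fold higher per reads outside rRNA (2.08 to 2.44). B4A was 1.70-fold higher per reads outside rRNA (1.63 to 1.78), B4 was 1.70-fold higher (1.60 to 1.80) and ID_B1 was 1.75-fold higher (1.64 to 1.88). These 3 names could not be told apart by counting error. Per library total the same 3 names were lower in the ZBP1 library, by 1.16-fold to 1.19-fold. The pooled ID names, on 9 and 10 reads, were 1.84-fold higher per library total (0.663 to 5.05) and 3.73-fold higher per reads outside rRNA (1.34 to 10.2). The first interval includes no difference and the second does not.

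Of the 5 names compared, 1 was lower by 2-fold or more in ZBP1 per library total, BC1_Mm, and none was 2-fold higher. The background was 50.1% of 682 names lower and 0.293% higher. Scaled to reads outside rRNA, 1 name was at least 2-fold higher, RSINE1, and none was lower, where 8.09% of 680 names were higher and 7.94% lower. Under TMM the same single name was higher and none was lower, against 5.13% and 10.9% of names. Per reads outside rRNA, the median log2 ratio of the 5 names was 0.77, against -0.05 for all names (interquartile range -0.53 to 0.46). The 4 B4 names lay above 86.2% to 95.1% of the 680 names. BC1_Mm lay above 47.6% of them, near the middle.

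**Figure D2:**
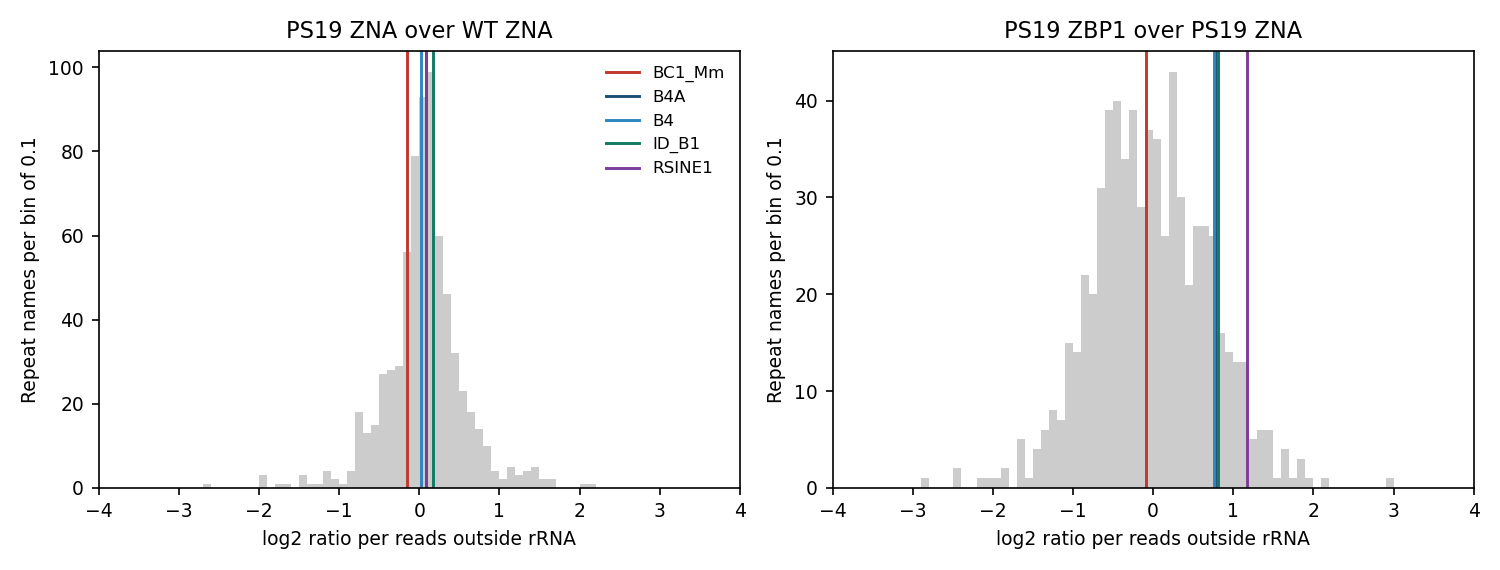
Log2 ratios per reads outside rRNA of all names compared (grey, names per bin of 0.1) with the 5 members that passed the filter as coloured lines. In PS19 ZNA over WT ZNA (left) the 5 lines lie between -0.16 (BC1_Mm, above 23.8% of names) and 0.17 (ID_B1), the B4A line next to that of RSINE1. In PS19 ZBP1 over PS19 ZNA (right) BC1_Mm is near the middle at -0.09, B4A, B4 and ID_B1 coincide between 0.76 and 0.81, and RSINE1 is at 1.17.

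The make-up of the B4 reads gives the same difference with no scaling. RSINE1 took 14.4% of the reads on the 4 B4 names in PS19 ZBP1 (13.6 to 15.3%), 11.4% in PS19 ZNA (10.9 to 11.9%) and 11.3% in WT ZNA (10.6 to 12.1%). The ZBP1 library stood apart from both ZNA libraries, which overlapped. B4A took 43.7%, 45.5% and 45.6% of these reads, B4 took 24.5%, 25.6% and 26.6%, and ID_B1 took 17.3%, 17.5% and 16.5%. RSINE1 relative to B4A was 1.32-fold higher in ZBP1 than in ZNA of PS19 (1.21 to 1.45), relative to B4 1.33-fold (1.20 to 1.46) and relative to ID_B1 1.29-fold (1.16 to 1.43). Between PS19 and WT ZNA the same 3 ratios were 1.01, 1.05 and 0.946, with intervals that include no difference. Of the other pairs of B4 names, ID_B1 relative to B4 was 1.11-fold higher in PS19 ZNA than in WT ZNA (1.01 to 1.21). The intervals of B4 and of ID_B1, each relative to B4A, include no difference there. Related names share sequence, and how the counting placed reads that fit several names is not given in the sources used here.

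**Figure D3:**
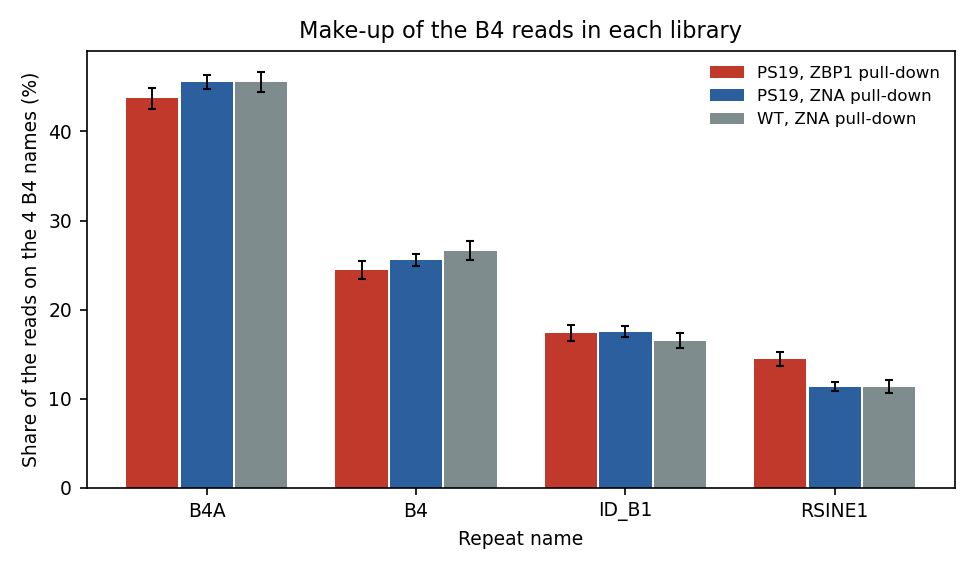
Share of the reads on the 4 B4 names that fell on each of them, in percent, for the 3 libraries (bars from 0, with 95% Wilson intervals). RSINE1 took 14.4% in the PS19 ZBP1 library against 11.4% and 11.3% in the ZNA libraries, and the intervals of the ZNA libraries overlap for each of the 4 names.

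As a whole the 8 names took 9.29% of the non-rRNA reads in PS19 ZBP1 (9.08 to 9.50%), 5.26% in PS19 ZNA (5.18 to 5.34%) and 4.98% in WT ZNA (4.87 to 5.10%). BC1_Mm took 0.477%, 0.900% and 1.06% of the reads on the 8 names, so their sum is in effect the B4 reads. These shares of reads are not corrected for the length or number of copies of a name.

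The B4 names were then set beside the other SINE families: B1 (10 names), its older relatives PB1 (5 names), the tRNA-derived B2 and B3 (5 names) and the ancient MIR (5 names). Of the reads on B4, ID and these 4 families, the B4 names took 41.7% in PS19 ZBP1 (40.9 to 42.5%), 46.1% in PS19 ZNA (45.6 to 46.6%) and 45.3% in WT ZNA (44.5 to 46.1%). Per reads outside rRNA all of these families were higher in PS19 ZBP1 than in PS19 ZNA. B4 was 1.77-fold higher, MIR 1.72-fold, B2 and B3 2.03-fold, B1 2.44-fold and PB1 3.47-fold. By single names, 1 of 4 B4 names (RSINE1), 1 of 5 MIR, 4 of 5 B2 and B3, 9 of 10 B1 and 5 of 5 PB1 names were at least 2-fold higher in that scaling. The background was 8.09% of the 680 names compared.

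Pooled, the B4 names were less shifted towards the ZBP1 library than 3 of these families. B4 relative to B1 was 0.727 of its ZNA value in the ZBP1 library (0.686 to 0.770), relative to B2 and B3 0.872 (0.837 to 0.909) and relative to PB1 0.511 (0.433 to 0.603). Relative to MIR it was 1.03 (0.936 to 1.13), an interval that includes no difference. RSINE1 alone was 0.924 of its ZNA value relative to B1 (0.841 to 1.01) and 0.650 relative to PB1 (0.542 to 0.779), but 1.11 relative to B2 and B3 (1.02 to 1.21). Between PS19 and WT ZNA, B4 relative to B1 was 1.03 (0.965 to 1.09), relative to B2 and B3 1.01 (0.970 to 1.05), relative to PB1 0.878 (0.710 to 1.08) and relative to MIR 1.24 (1.14 to 1.35). The larger part of the last ratio was on the MIR side. Per reads outside rRNA, MIR was at 0.850 of its WT value (0.784 to 0.922). The B4 names pooled were 1.06-fold higher (1.03 to 1.09).

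BC1 was also set beside other small RNAs made by RNA polymerase III, since it shares its polymerase with them. The list was 7SK, 7SL, 4.5S, the Y RNAs, U6, 5S and tRNA names. It held 58 names, 11 had a read, and 5 passed the filter in each comparison: 7SK, 7SLRNA, 4.5SRNA, HY1 and HY3. In PS19 against WT ZNA, BC1 was higher relative to 4 of these 5 names. Per reads outside rRNA, 3 of the 5 (7SK, HY1 and HY3) were at least 2-fold lower in PS19 and 1 (4.5SRNA) was at least 2-fold higher. The background was 2.39% of 711 names lower and 3.52% higher. BC1 relative to 7SK, which restrains transcription elongation, was 2.44-fold higher in PS19 (1.83 to 3.27). Relative to the Y RNAs it was 3.58-fold higher for HY1 (2.61 to 4.92) and 5.70-fold higher for HY3 (4.08 to 8.01). Relative to 7SLRNA, the RNA of the signal recognition particle, it was 1.57-fold higher (1.05 to 2.36). Relative to 4.5SRNA, a rodent RNA, it was instead 2.87-fold lower (1.71 to 4.95).

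In ZBP1 against ZNA within PS19, BC1 was 2.43-fold higher relative to 7SK (1.58 to 3.63), 5.60-fold relative to HY1 (2.82 to 11.7) and 2.19-fold relative to HY3 (1.14 to 4.32), and 1.87-fold lower relative to 4.5SRNA (1.12 to 3.14). Relative to 7SLRNA the interval includes no difference (0.802 to 3.16). BC1 thus took 6.93% of the reads on BC1 and this list in PS19 ZBP1 (4.98 to 9.58%), 3.26% in PS19 ZNA (2.78 to 3.82%) and 1.29% in WT ZNA (1.04 to 1.62%). The 3 intervals did not overlap. Per reads outside rRNA, BC1_Mm itself was at 0.937 of its ZNA value in the ZBP1 library (0.622 to 1.37). In that scaling 7SK was 2.59-fold lower, HY1 6.00-fold, HY3 2.35-fold and 7SLRNA 1.68-fold lower, while 4.5SRNA was 1.75-fold higher. Of the 5 listed names, 3 were at least 2-fold lower, where 7.94% of 680 names were. Most of the list's reads were on 7SK, with 330, 3542 and 4556 reads. Over these pairs and those of the SINE families, 22 ratios of names or families were computed in each comparison.

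**Figure D4:**
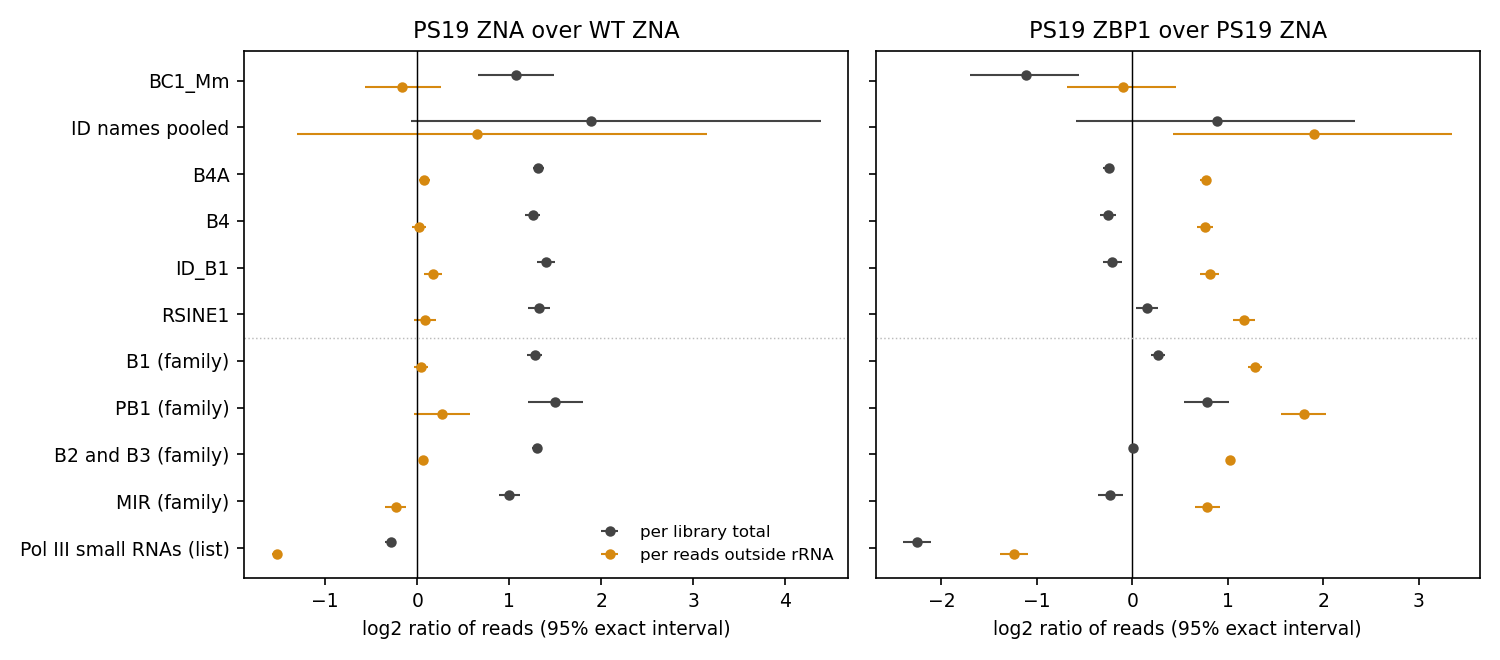
Log2 ratios of reads, with 95% exact intervals, for BC1, ID and B4 names (above the dotted line) and for other SINE families and small RNAs of RNA polymerase III (below it), per library total (black) and per reads outside rRNA (orange). On the right, per reads outside rRNA, the B4 names and SINE families lie above 0, the small RNAs pooled lie below 0, and the BC1_Mm interval (-0.69 to 0.46) spans 0.

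The names whose levels ran most like those of BC1 over the 3 libraries were not SINEs. Likeness was the Euclidean distance between log2 CPM values centred over the 3 libraries, among the 467 names that averaged 10 CPM or more and had a read in every library. The nearest were L1MB1 (distance 0.018), an ancient LINE, RLTR9E (0.045), an LTR, Charlie1a (0.048), a DNA transposon, L1MA8 (0.049), an ancient LINE, and RMER12 (0.058). The median distance from BC1_Mm was 0.494, and those to the B4 names were 0.786 (B4), 0.820 (B4A), 0.903 (ID_B1) and 1.15 (RSINE1). For B4A, the member with the most reads, the nearest names were LTR16A (0.020), RMER1C (0.036), RLTR13B4 (0.037), B4 (0.049) and MLTR14 (0.063), against a median of 0.770. ID_B1 ranked 7 and RSINE1 ranked 77 in likeness to B4A. With 3 libraries, and with 33 reads on BC1_Mm in one of them, the order among near neighbours lies within counting error.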

How the data were processed

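RNA immunoprecipitation libraries from hippocampus were analysed, 1 per group, grouped by sample title. The authors deposited raw read counts, one whole number per repeat name and library and not normalized, as the values show. Trim Galore 0.6.5, STAR 2.5.3a, featureCounts 2.0.4 and mm39 are named in the submitters' processing notes. The repeat annotation, strand setting and handling of reads with several matches are not given in the sources used here.

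CPM used each library's total over all names. 1 read is worth 0.702, 0.343 and 0.309 CPM in PS19 ZBP1, PS19 ZNA and WT ZNA. Names averaging 1 CPM or more, with 20 reads or more over both libraries, were compared on log2(CPM + 1), with a limit of 2-fold. Ratios have exact conditional 95% intervals. A ratio between names is the conditional odds ratio. Without replicates edgeR's quasi-likelihood test could not be fitted, so no p-value is given. All members were named. Scaling to reads outside rRNA kept the mean library size, so that the pseudocount weighs alike. Alternatives were that scaling, TMM (edgeR 4.0.16, R 4.3.3), pseudocounts of 0.1 and 5, other filters, and limits of 1.5-fold and 4-fold. Scripts (Python 3.11.15, scipy 1.17.1, numpy 2.4.6, pandas 2.3.3, matplotlib 3.10.9) were tested on simulated data. Members, families and tests were chosen with earlier results of these data known.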

Additional observations from a re-analysis of the deposited data

How the results depend on the processing

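Scaling turned the direction of 4 of 10 single-name ratios. The log2 ratio of BC1_Mm in PS19 over WT ZNA went from 1.07 per library total to -0.16 per reads outside rRNA and -0.15 under TMM, and on the log2(CPM + 1) scale from 1.04 to -0.16 and -0.15. That of the B4 names pooled went from 1.31 to 0.079 and 0.088. In PS19 ZBP1 over ZNA, BC1_Mm went from -1.11 to -0.094 and -0.25, and the B4 names pooled turned from -0.19 to 0.83 and 0.67. The other 3 names that turned went to 0.81 and 0.65 (ID_B1), 0.76 and 0.61 (B4) and 0.77 and 0.61 (B4A). A rescaling shifts all log2 ratios of a comparison by 1 constant, apart from the pseudocount. The 5 members at least 2-fold higher in PS19 became 0 under both scalings, 0 at 4-fold and 4 at a pseudocount of 5, where BC1_Mm fell to 0.93. With no filter they became 6, the added name being ID4 on 8 and 2 reads. In PS19 over WT ZNA, 74.3% of all names were higher in the main setting, 3.52% per reads outside rRNA and 3.51% under TMM. The 1 member at least 2-fold lower in ZBP1 became 0 under both scalings, at a pseudocount of 5 and at 4-fold. The 0 members higher became 1 under both scalings. Of all names, 50.1% were lower in the main setting, 7.94% per reads outside rRNA and 10.9% under TMM. In the same order, 0.293%, 8.09% and 5.13% were higher. For both comparisons, the share of all names at the other pseudocounts, filters and fold limits was not computed. The pooled ID ratios stayed within their counting intervals (0.65 and 0.66, and 1.90 and 1.74). In ZBP1 over ZNA, on 9 and 10 reads, the fold interval still includes no difference per library total (0.663 to 5.05). Per reads outside rRNA it does not (1.34 to 10.2). With ID4_v added, chosen after seeing the data, the 2 log2 ratios per library total were 2.37 and 0.81. The first then excluded no difference from its own interval per library total. Pseudocounts moved none of the 10 single-name ratios beyond its interval. Leaving BC1_Mm out of the denominator moved none of 21 shares of member reads. It could hardly have done so, since BC1_Mm took only 0.477% to 1.06% of these reads. Few reads limit BC1_Mm (33 in PS19 ZBP1) and the ID names (3 in WT ZNA). No paired analysis was possible because each group has 1 library. Leaving out a library was not possible for the same reason.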
